A study of Rattus norvegicus with 7 samples.

Results

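The contractile and actin-binding genes under serum response factor (SRF) were examined in rat bone marrow mesenchymal stem cells (rMSCs) that had spent 4 h on a polymer film or on tissue culture plastic. The 10 genes were taken by name for their known roles: Acta2, Actg2, Tagln, Cnn1, Cnn2, Myl9, Tpm1, Tpm2, Cald1 and Srf itself. Values for 9 of the 10 were found among the 17147 genes listed, and Cnn2 was not analysed here. The RNA-seq experiment addressed how the transcriptome of the cells differed with the surface they adhered to. It comprised 7 libraries: 3 from PCL films (polycaprolactone), 3 from ISB-P films (a polycaprolactone-based polyurethane made with propoxylated isosorbide) and 1 from tissue culture plate (TCP). All groups were untreated primary rMSCs kept in growth medium with serum, and each film carried 20000 seeded cells. The study's methods describe isolation of rMSCs from the marrow of 1 male Sprague-Dawley rat at 6 weeks of age, and nothing states that the replicates were separate cultures. The p-values therefore measure the spread between these libraries, which may be technical.

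SRF is a transcription factor that binds a short DNA element called the CArG box, in which CC and GG flank 6 letters that are each A or T. At contractile genes it works with myocardin (Myocd) and the myocardin-related factors, which monomeric actin holds in the cytoplasm and which enter the nucleus as actin polymerises. At immediate early genes it works with ternary complex factors of the Elk family. The contractile genes are abundant in smooth muscle and are also expressed by mesenchymal cells that spread and pull on a stiff surface.

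Promoter windows were searched for the element that SRF binds. RefSeq promoter windows of build GRCr8, covering 250 bases before the transcript start, were matched for 8 of the 10 genes, with 2 starts for Cald1, while Tagln and Myl9 had no entry. A complete CArG box, searched on both strands, was present in 501 of 33469 RefSeq promoters of this length (1.50%), a CArG box with at most 1 mismatch in 18.7%, and the MCAT element CATTCC in 12.1%. Srf and Cnn2 held complete CArG boxes. The Srf window held 2 of them, which 7 of the 33469 windows (0.0209%) matched or exceeded, and a further box with 9 of 10 letters. The Acta2 window held 2 boxes with 9 of 10 letters. Both are printed from 5′ to 3′ in the direction of the gene with the CArG matches in capitals. Srf was chosen as the only one of the 9 measured genes whose film libraries did not overlap, as in 17.7% of all genes tested. Acta2 was chosen as the defining contractile actin. The printed stretch of Srf is chr9:21923826-21924049 on the plus strand and that of Acta2 is chr1:241172504-241172753 on the minus strand. For Srf 224 of the 250 bases are printed, because the window ran on to 21924075 within the annotated gene. Positions below count back from the transcript start, at the end of the full window.
Srf: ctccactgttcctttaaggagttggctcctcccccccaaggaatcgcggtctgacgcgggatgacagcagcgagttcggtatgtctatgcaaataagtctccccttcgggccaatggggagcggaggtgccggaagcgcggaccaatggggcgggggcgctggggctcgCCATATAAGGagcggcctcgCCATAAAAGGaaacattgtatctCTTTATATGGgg
Acta2: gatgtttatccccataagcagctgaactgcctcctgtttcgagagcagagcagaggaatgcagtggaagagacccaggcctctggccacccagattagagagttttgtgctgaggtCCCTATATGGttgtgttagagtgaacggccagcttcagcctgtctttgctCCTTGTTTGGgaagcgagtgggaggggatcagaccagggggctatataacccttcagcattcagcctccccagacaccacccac

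In Srf, the complete boxes CCATATAAGG and CCATAAAAGG began 81 and 61 bases before the start, and the incomplete box CTTTATATGG began 38 bases before it. In Acta2, CCCTATATGG began 134 and CCTTGTTTGG 84 bases before the start, and an MCAT element lay further upstream. Cnn2 held the complete box CCTTATAAGG, 71 bases before its start. Tpm1 and the first Cald1 start held boxes with 9 of 10 letters and an MCAT element each. Neither motif was found in the windows of Actg2, Cnn1, Tpm2 and the second Cald1 start. The windows of Actg2, Tpm2 and both Cald1 starts lay wholly within the annotated gene, and only 4 bases of the Tpm1 window lay outside it. For these genes the matches and their absence therefore describe internal starts, and the sequence before the annotated gene was not searched. None of the matches overlapped each other, and a match describes letters only. The expression values were made on another build, rn5, so the GRCr8 windows served only as sequence.

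**Figure D1:**
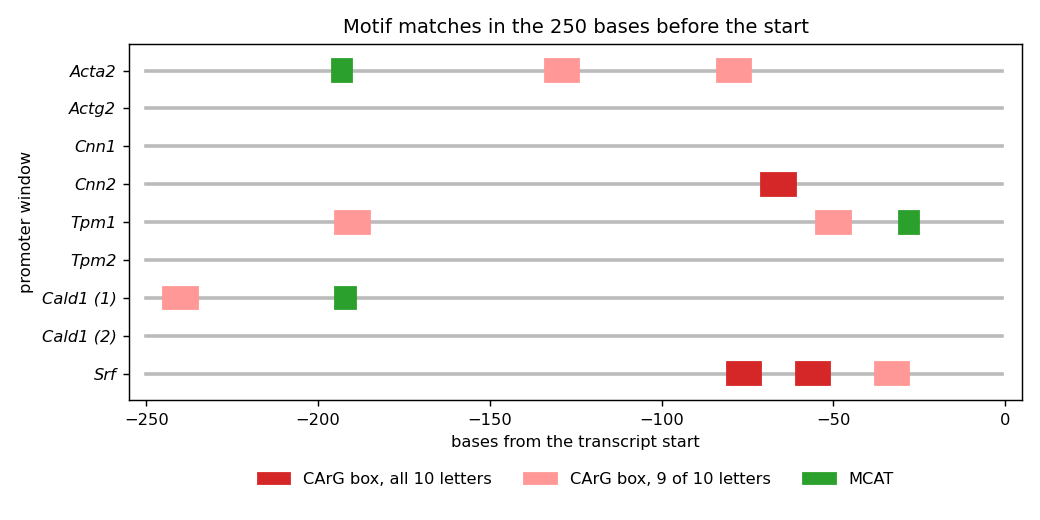
Positions of CArG boxes (red for all 10 letters, pink for 9 of 10) and MCAT elements (green) along the 250 bases before each transcript start, with bases from the start on the horizontal axis and 1 line per promoter window. Complete boxes are drawn for Cnn2 and Srf, and the 2 complete boxes of Srf begin 81 and 61 bases before its start.

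Values were read as fragments per kilobase of transcript and per library size (FPKM), a level per transcript length that can be compared between genes. The read depth of the libraries is unknown, and the sums of all values ranged from 539393 to 660124 FPKM. Of 6 mesenchymal markers, Thy1 stood at 925 to 1210 FPKM and Col1a1 at 3868 to 10406 FPKM, both highest on TCP. Cd44 stood at 275 to 482, Pdgfrb at 86.6 to 177, Eng at 11.1 to 19.2 and Nt5e at 8.13 to 12.9 FPKM. TCP lay above all films for 3 of the 6, against 25.4% of all genes. Ptprc (CD45, the pan-leukocyte marker) stood at 0.43 to 1.48 FPKM. Other blood cell markers were higher, with Lyz2 at 16.6 to 72.9, Cd14 at 10.9 to 31.7 and Cd68 at 3.05 to 15.1 FPKM. Itgam stood at 0.66 to 2.56 FPKM. The summed level of 4 endothelial markers did not pass 0.565 FPKM in any library. Of 7 smooth muscle and pericyte markers, Rgs5 was listed at 0 in 6 of 7 libraries and Myh11, the smooth muscle myosin heavy chain, lay between 4.29 and 8.56 FPKM. Cspg4 stood at 64.6 to 176, Smtn at 21.4 to 50.1 and Mcam at 8.03 to 14.9 FPKM. Des lay at 3.47 to 11.0 and Lmod1 at 2.85 to 10.1 FPKM. In these bulk samples, fewer cells of a type and less RNA per cell cannot be told apart.

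The 9 measured genes together made up 0.664% to 1.07% of the summed FPKM. In order of the mean over the 6 film libraries, Tagln stood first at 2147 FPKM, followed by Tpm2 at 754, Acta2 at 648, Myl9 at 394, Cald1 at 351, Tpm1 at 282, Actg2 at 143, Cnn1 at 73.1 and Srf at 16.1 FPKM. The ranges over the 7 libraries overlapped between Tpm2 and Acta2, Myl9 and Cald1, and Cald1 and Tpm1. Tpm2 exceeded Acta2 in 4 of 7 libraries, Myl9 exceeded Cald1 in 5 of 7 and Cald1 exceeded Tpm1 in 6 of 7. The other neighbours in the order kept their place in 7 of 7 libraries. The lowest and highest of the 7 levels differed by 1.12 times for Cnn1 and 1.19 times for Tagln, but by 2.26 times for Tpm2 and 2.39 times for Srf.

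**Figure D2:**
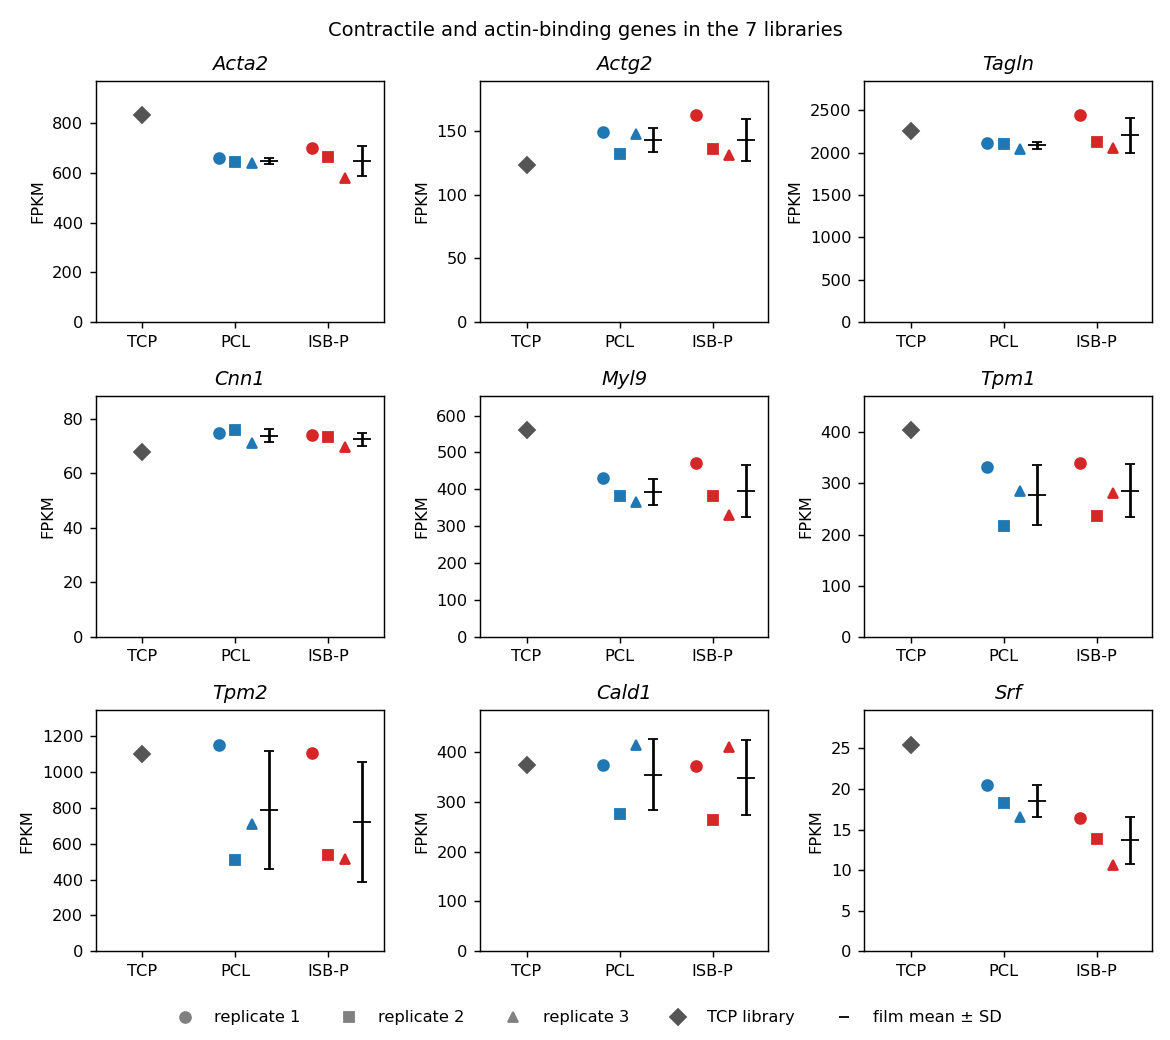
Level in FPKM of the 9 measured genes in each library, with 1 panel per gene and a linear axis from 0; marker shapes give the replicate number and black marks the film mean ± SD (n = 3). Srf alone of the 9 had all 3 ISB-P libraries (10.7 to 16.5 FPKM) below all 3 PCL libraries (16.6 to 20.6 FPKM). Of all genes tested, 9.54% showed this order.

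The contractile genes among the 9 measured had mean levels on ISB-P of 0.912 (Tpm2) to 1.06 (Tagln) times those on PCL. The regulator Srf averaged 18.5 FPKM on PCL and 13.7 FPKM on ISB-P, a difference that passed the test only when replicate numbers were paired. With limma on log2(FPKM + 1) and Benjamini-Hochberg adjustment over 9467 genes, 0 of the 9 genes passed an adjusted p of 0.05 in ISB-P against PCL, against 1.72% of all genes tested (1.1% higher and 0.623% lower). None had an unadjusted p under 0.05 either, against 1145 of all 9467 genes tested. The median log2 fold change was -0.0041 for the 9 genes and 0.016 for all genes tested. These medians were -0.156 and -0.017 under quantile scaling, -0.120 and -0.089 with a common total, and -0.084 and -0.056 with upper quartile scaling. When the replicate number was entered as a block, 1 of the 9 genes was called, Srf, which was lower on ISB-P, while 24.4% of all genes were called, 13% higher and 11.4% lower. No gene of the 9 met the study's own limits (over 2-fold, p under 0.1 and a level of at least 16), which 0.687% of all genes met. The limits were applied here to limma p-values, differences on log2(FPKM + 1) and film means in FPKM. The study used other software and gives no unit for its normalized level.

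Acta2 encodes smooth muscle α-actin, the hallmark of contractile mesenchymal cells. It measured 662, 644 and 638 FPKM on PCL and 700, 663 and 582 FPKM on ISB-P, with 832 FPKM on TCP. The films overlapped, with means of 648 ± 12.3 on PCL and 648 ± 60.4 FPKM on ISB-P (SD, n = 3). The difference on the log2(FPKM + 1) scale was -0.0039 ± 0.113 (SE), with a 95% interval from -0.27 to 0.26. That interval corresponds to 0.828 to 1.20 times the PCL level.

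Actg2 encodes the enteric smooth muscle γ-actin. It measured 149, 132 and 148 FPKM on PCL and 162, 136 and 131 FPKM on ISB-P, with 124 FPKM on TCP. Both the highest and the lowest film value came from ISB-P, and the log2 difference was -0.0027 (95% interval -0.32 to 0.32). The ratio of Acta2 to Actg2 was 6.73 on TCP, 4.33 to 4.89 on PCL and 4.32 to 4.89 on ISB-P. The skeletal and cardiac α-actins were near the bottom of the range, with Acta1 at 0.94 to 1.30 FPKM and Actc1 at 0 to 0.05 FPKM. How reads shared by these near-identical actins were assigned is not given in the sources used here, so levels of single actins carry that uncertainty.

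Tagln encodes transgelin (SM22α), an actin-bundling protein of the calponin family. It measured 2120, 2103 and 2043 FPKM on PCL and 2439, 2129 and 2051 FPKM on ISB-P, with 2260 FPKM on TCP. It was higher on ISB-P in 3 of 3 replicate pairs, with ISB-P to PCL ratios of 1.15, 1.01 and 1.00, and 30.5% of all genes were higher in all pairs. Its log2 difference of 0.075 ± 0.103 (SE) did not pass the test, with a limma Benjamini-Hochberg adjusted p of 0.911, or 0.42 with the replicate block. The sign turned when libraries were scaled to a common total (-0.04), to common quantiles (-0.16) or to the upper quartile (-0.0046).

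Cnn1 encodes calponin 1, which binds actin and lowers myosin ATPase activity. It measured 74.6, 75.8 and 71.0 FPKM on PCL and 74.2, 73.3 and 69.6 FPKM on ISB-P, with 67.8 FPKM on TCP. Its spread was the smallest of the 9 genes on ISB-P, with a coefficient of variation of 3.33%, against 3.39% on PCL. Cnn1 was lower on ISB-P in 3 of 3 pairs, by 0.517% to 3.36%, and 27.7% of all genes were lower in all pairs. The 95% interval of its log2 difference ran from -0.29 to 0.24.

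Cald1 encodes caldesmon, which blocks actomyosin interaction until calcium signals release it. It measured 373, 276 and 414 FPKM on PCL and 371, 264 and 409 FPKM on ISB-P, with 374 FPKM on TCP. Replicate 2 was lowest and replicate 3 highest on both films, so the levels differed far more between replicate numbers than between films. Within the pairs Cald1 was lower on ISB-P by 0.403%, 4.52% and 1.13%. The log2 difference was -0.030 (95% interval -0.56 to 0.50), and the interval narrowed to -0.17 to 0.11 with the replicate block.

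Myl9 encodes a regulatory light chain of myosin II, whose phosphorylation starts contraction. It measured 431, 382 and 365 FPKM on PCL and 471, 383 and 330 FPKM on ISB-P, with 560 FPKM on TCP. Replicate 1 was highest and replicate 3 lowest on both films, and the ISB-P values enclosed the PCL values. The film means were 393 ± 34.4 on PCL and 395 ± 71.0 FPKM on ISB-P (SD, n = 3), a log2 difference of -0.0041 (95% interval -0.38 to 0.38).

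Tpm1 and Tpm2 encode tropomyosins, which lie along actin filaments and control access of myosin and other proteins. Tpm1 measured 331, 216 and 285 FPKM on PCL and 340, 236 and 282 FPKM on ISB-P, with 404 FPKM on TCP. Tpm2 measured 1152, 509 and 707 FPKM on PCL and 1104, 538 and 517 FPKM on ISB-P, with 1098 FPKM on TCP. For both genes replicate 1 was the highest library on its film. In replicate 1, Tpm2 lay above the mean of its film by 0.63 on PCL and 0.71 on ISB-P (log2). The ratio of Tpm1 to Tpm2 was 0.288 and 0.308 in replicate 1 of PCL and ISB-P, against 0.403 to 0.544 in the other film libraries and 0.368 on TCP. The interval of the Tpm2 film difference was correspondingly wide without the block, from -1.07 to 0.78, and ran from -0.36 to 0.07 with it. Tpm1 differed by 0.050 (95% interval -0.44 to 0.54), a sign that turned under common total (-0.07), quantile (-0.11) and upper quartile scaling (-0.03).

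Srf encodes the transcription factor itself. It measured 20.6, 18.3 and 16.6 FPKM on PCL and 16.5, 13.8 and 10.7 FPKM on ISB-P, with 25.5 FPKM on TCP. All ISB-P values lay below all PCL values, although the nearest libraries, PCL replicate 3 at 16.61 and ISB-P replicate 1 at 16.48 FPKM, were almost level. Srf was the only one of the 9 genes without overlap, which 17.7% of all genes showed, 9.54% lower and 8.17% higher. The means were 18.5 ± 1.98 on PCL and 13.7 ± 2.91 FPKM on ISB-P (SD, n = 3), a ratio of 0.739. Within the pairs Srf was lower on ISB-P by 19.8%, 24.4% and 35.8%.

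The log2 difference of Srf was -0.43 ± 0.181 (SE), with a 95% interval from -0.85 to 0.0031 and a limma Benjamini-Hochberg adjusted p of 0.419. With the replicate block the difference was the same, the SE was 0.0856, the interval ran from -0.62 to -0.23 and the limma adjusted p was 0.00852. The exact permutation test, two-sided, gave p = 0.1, the smallest that 3 against 3 libraries allow. Srf was called in 8 of 8 fits with the block, with log2 differences from -0.53 to -0.34, and in 0 of 14 fits without it, where they ran from -0.56 to -0.27. Blocked fits that leave out a replicate number rest largely on the spread of other genes. The largest move came from leaving out ISB-P replicate 3, which gave -0.27. Relative to the contractile genes, the ratio of Srf to Acta2 was 0.0260 to 0.0311 on PCL and 0.0183 to 0.0236 on ISB-P, and the ratio of Srf to Tagln 0.00813 to 0.00970 on PCL and 0.00520 to 0.00676 on ISB-P. Both ratios were thus lower in every ISB-P library than in any PCL library, and no test of the difference between Srf and the other genes was made. Smooth muscle and pericyte markers moved with Srf: with the block 5 of 6 tested were lower on ISB-P (Cspg4, Des, Lmod1, Mcam and Smtn), against 11.4% of all genes, without it 0 of 6, against 0.623%, and the summed level of the 7 listed was 153 to 227 FPKM on PCL and 105 to 178 FPKM on ISB-P. Myh11, the other marker tested, measured 4.31 to 7.23 FPKM on PCL and 4.29 to 7.15 FPKM on ISB-P. Its log2 difference of -0.045 did not pass in either fit. Of the smooth muscle and pericyte markers, Des, Lmod1, Myh11 and Smtn are themselves listed as SRF targets. The mesenchymal marker Pdgfrb also moved with Srf, at 154 to 177 FPKM on PCL and 86.6 to 110 FPKM on ISB-P, a log2 difference of -0.76 with a limma Benjamini-Hochberg adjusted p of 0.051, or 1.41e-04 with the block, while the other 5 mesenchymal markers did not pass in either fit. The part of these markers in the Srf difference was not tested.

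**Figure D3:**
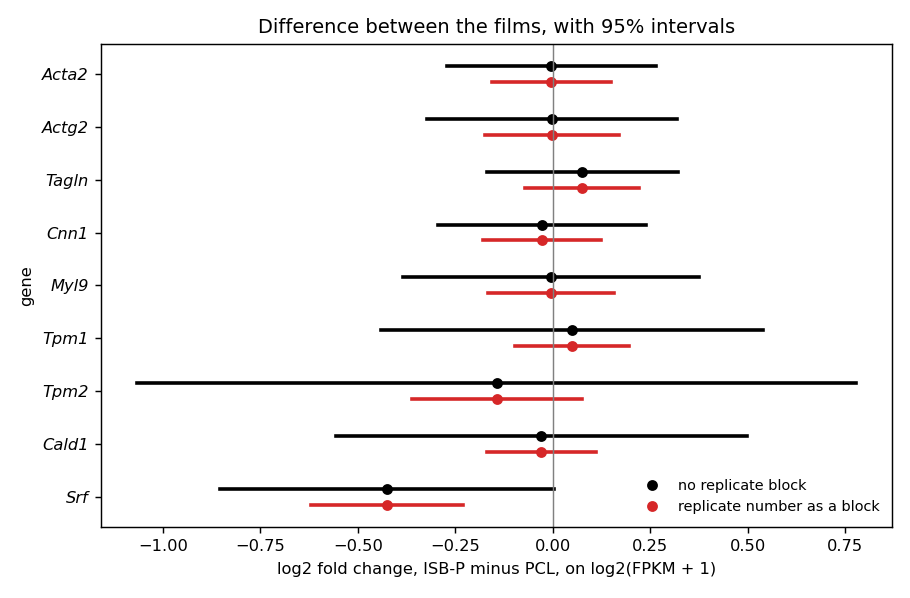
Log2 fold change of ISB-P minus PCL on log2(FPKM + 1), with 95% intervals, for the 9 measured genes without (black) and with (red) the replicate number as a block. Only the blocked interval of Srf, from -0.62 to -0.23, lies clear of 0.

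The genes that act with or under SRF were read from lists chosen with earlier results of these data known. Of 8 listed cofactors and partners of SRF, 5 were tested. Of these 1 was called, both without and with the block, against 1.72% and 24.4% of all genes. This was Myocd, the smooth muscle and cardiac coactivator, with 1.91, 1.79 and 1.63 FPKM on PCL, 2.99, 3.27 and 3.28 FPKM on ISB-P and 0.69 FPKM on TCP. Its ISB-P values lay above all others, the log2 difference was 0.59 ± 0.10 (SE) and the limma Benjamini-Hochberg adjusted p was 0.0450. These levels are low, and the call held in 5 of 13 fits without the block and 8 of 8 with it. Without the block it was lost when any single film library was left out, at limma adjusted p of 0.0841 to 0.256. The unblocked call of Myocd was also lost with a common total and with upper quartile scaling (limma adjusted p of 0.0989 and 0.115). Elk1, Elk3, Elk4 and the LIM protein Fhl2 did not pass the test in either fit. The myocardin-related factors and Scai were not found in the tables and were not analysed here. The median log2 difference of the 5 tested was 0.064.

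Of 18 further contractile and actin-binding genes under SRF, 16 were tested. Without the block 0 were called, against 1.72% of all genes. An unadjusted limma p under 0.05 was reached by 4, against 1145 of all 9467 genes. With the block 3 were higher and 4 lower on ISB-P, where 13% of all genes were higher and 11.4% lower. The higher ones were Tgfb1i1 (Hic-5, a focal adhesion protein) at 0.48, Synpo2 (an actin-bundling protein) at 0.40 and Fhl1 at 0.38 log2, with limma Benjamini-Hochberg adjusted p of 0.00165, 0.0184 and 0.00851. The lower ones were the actin nucleator Lmod1 at -0.43, smoothelin Smtn at -0.40, the intermediate filament gene Des at -0.32 and cytoplasmic γ-actin Actg1 at -0.29, with limma adjusted p of 0.0104, 0.00825, 0.0336 and 0.00804. Des was named after its values were seen. The 3 higher genes, Lmod1 and Smtn were called in 8 of 8 fits with the block, and Actg1 lost the call without replicate 2. Actg1 measured 2649, 2755 and 2560 FPKM on PCL and 2234, 2234 and 2049 FPKM on ISB-P, without overlap, with 2476 FPKM on TCP. Vcl, Flna, Zyx, Csrp1, Pdlim7, Tpm4 and Actb, which encode adhesion and filament proteins, did not pass in either fit, and Myh9 was listed at 0 in every library. The median log2 difference was -0.065.

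The ternary complex factor arm of SRF was followed through 9 immediate early genes. On ISB-P against PCL, 1 was higher without the block (Egr2), against 1.1% of all genes. With the block 3 were higher (Egr2, Egr3 and Fosb) and 1 lower (Fos), beside the same 13% and 11.4% of all genes. Egr2 measured 0.98, 1.03 and 1.06 FPKM on PCL and 2.34, 2.63 and 1.87 FPKM on ISB-P, with 6.19 FPKM on TCP. Its log2 difference was 0.69 ± 0.116 (SE) with a limma Benjamini-Hochberg adjusted p of 0.0445, a call held in 6 of 13 fits without the block and 8 of 8 with it. Without the block it was lost when ISB-P replicate 1, ISB-P replicate 2 or any single PCL library was left out (limma adjusted p from 0.103 to 0.225). The unblocked call of Egr2 was also lost with a common total and with upper quartile scaling. Egr3 at 0.50, Fosb at 0.38 and Fos at -0.33 log2 were called with the block at limma adjusted p of 0.0124, 0.0107 and 0.0496. Fosb lost the blocked call without replicate 1, and Fos lost it without replicate 3 and under quantile scaling. Fos and Fosb, 2 members of the same AP-1 family, thus had opposite signs. The median log2 difference of the 9 was 0.187.

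The close relatives of the contractile genes included 9 that were tested. Without the block 0 were called, against 1.72% of all genes. An unadjusted limma p under 0.05 was reached by 1, against 1145 of all 9467 genes. With the block 1 was called, Actg1, against 24.4% of all genes. The ratio of Acta2 to Actb was 0.227 on TCP, 0.185 to 0.236 on PCL and 0.198 to 0.283 on ISB-P, with overlap between the films but a higher ratio on ISB-P in 3 of 3 replicate pairs. The promoter windows of the relatives and pathway genes were read in the same way. Complete CArG boxes were found in 3 of 15 matched further targets (Acta1, Actg1 and Fhl1), in 2 of 7 immediate early genes (Egr1 and Egr2) and in 1 of 7 cofactors (Fhl2). Of these, Actg1 was lower on ISB-P and Fhl1 and Egr2 higher with the block, while Acta1, Egr1 and Fhl2 did not pass.

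**Figure D4:**
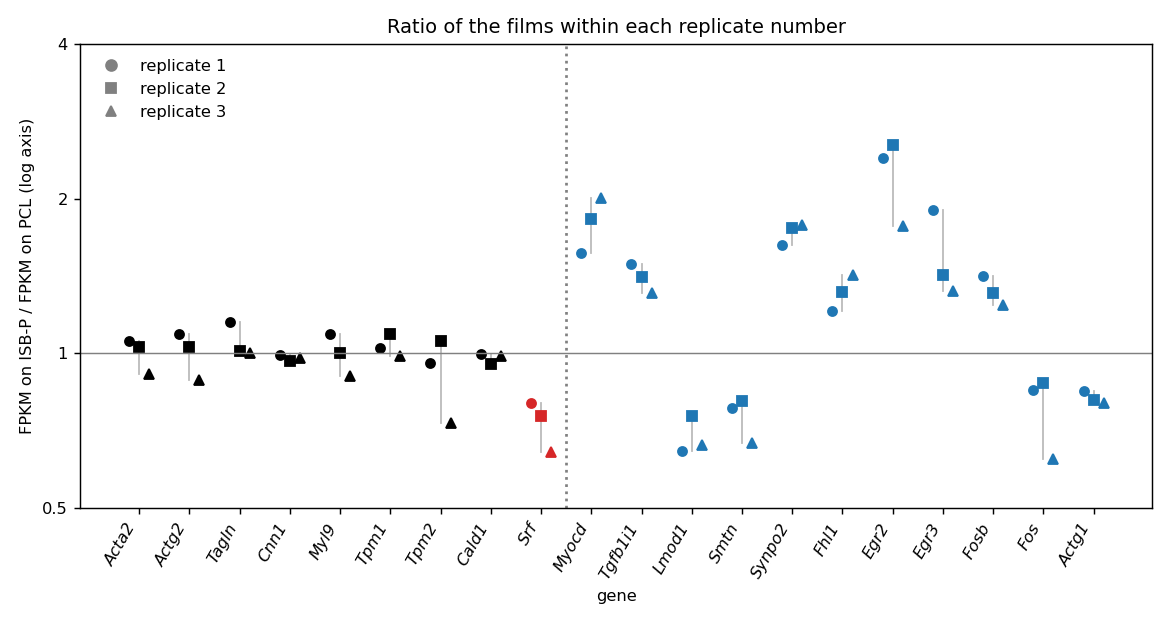
Ratio of FPKM on ISB-P to FPKM on PCL within each replicate number (log axis), for the 9 measured genes left of the dotted line and called genes of the SRF pathway right of it; marker shapes give the replicate number. The Srf ratios are 0.802, 0.756 and 0.642, and those of Egr2 are 2.40, 2.55 and 1.77.

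Against TCP, which had 1 library and no replicate check, none of the 9 measured genes passed the test. The library was assumed to vary like the films. With limma and Benjamini-Hochberg adjustment 0 of 9 genes were called on PCL, against 7.78% of all genes (4% higher and 3.78% lower). On ISB-P 0 of 9 were called, against 12.5% of all genes (6.37% higher and 6.11% lower). At an unadjusted limma p under 0.05 there were 0 for PCL and 1 for ISB-P, Srf. Of all 9467 genes tested, 1967 reached it for PCL and 2751 for ISB-P. The TCP level lay above all 6 film libraries for 4 of the 9 genes, Acta2, Myl9, Tpm1 and Srf, against 25.4% of all genes. It lay below all 6 for 2 of the 9, Actg2 and Cnn1, against 29.7% of all genes. Neither share was tested against that of all genes. Both film comparisons share this library, so the same TCP value stands behind each pair of differences.

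The median log2 difference of the 9 genes from TCP was -0.36 on each film, against 0.063 on PCL and 0.060 on ISB-P for all genes. Acta2 on TCP was 1.28 times the mean of either film, with log2 differences of -0.36 on both. Myl9 on TCP was 1.43 times the PCL mean and 1.42 times the ISB-P mean. Tpm1 was 1.46 and 1.41 times as high on TCP, and Tpm2 1.39 and 1.53 times, although replicate 1 of either film reached the Tpm2 level of TCP. Tagln (1.08 and 1.02 times) and Cald1 (1.06 and 1.07 times) lay within the range of the films. Actg2 on TCP was 0.865 times the mean of either film, and Cnn1 0.918 and 0.937 times. Under quantile scaling the log2 differences of ISB-P from TCP turned to -0.03 for Actg2 and -0.11 for Cnn1, and that of Cnn1 also turned with a common total (-0.09) and with upper quartile scaling (-0.11 on ISB-P and -0.0018 on PCL).

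Srf on TCP was 1.38 times the PCL mean and 1.86 times the ISB-P mean, so the 3 surfaces ranked TCP, PCL, ISB-P without overlap. The log2 differences from TCP were -0.45 on PCL (95% interval -1.05 to 0.16, limma Benjamini-Hochberg adjusted p = 0.398) and -0.87 on ISB-P (-1.48 to -0.26, adjusted p = 0.0731). Without ISB-P replicate 1 the second was -1.01, with a limma adjusted p of 0.0386. Among the pathway genes, 4 of 9 immediate early genes (Egr2, Fos, Fosb and Nr4a1) were lower than TCP on each film and Myocd was higher on each film. Of all genes, 3.78% were lower and 4% higher on PCL, and 6.11% lower and 6.37% higher on ISB-P. Of the 16 further contractile targets tested, Synpo2 was lower on both films, by 1.23 on PCL and 0.83 on ISB-P on the log2 scale (limma adjusted p = 0.00456 and 0.0154). Lmod1 and the adhesion gene Vcl were lower on ISB-P, by 1.40 and 0.88 (limma adjusted p = 0.0165 and 0.0199). TCP lay above all films for 10 of the 16, against 25.4% of all genes. Markers of blood cells moved with TCP: all 5 listed were highest there, 3 of the 3 tested were lower on both films, and their summed level was 124 FPKM on TCP and 37.4 to 45.0 FPKM on the films. The pan-leukocyte marker Ptprc was low throughout, at 1.48 FPKM on TCP. TCP also lay above all films for 6 of the 6 smooth muscle and pericyte markers tested, beside the same 25.4% of all genes. Their summed level over the 7 listed was 270 FPKM on TCP and 105 to 227 FPKM on the films. The skeletal muscle gene Tnnt3 was likewise highest on TCP, at 4.81 FPKM against 0.55 to 1.43 FPKM on the films. The part of these markers in the differences from TCP was not tested.

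**Figure D5:**
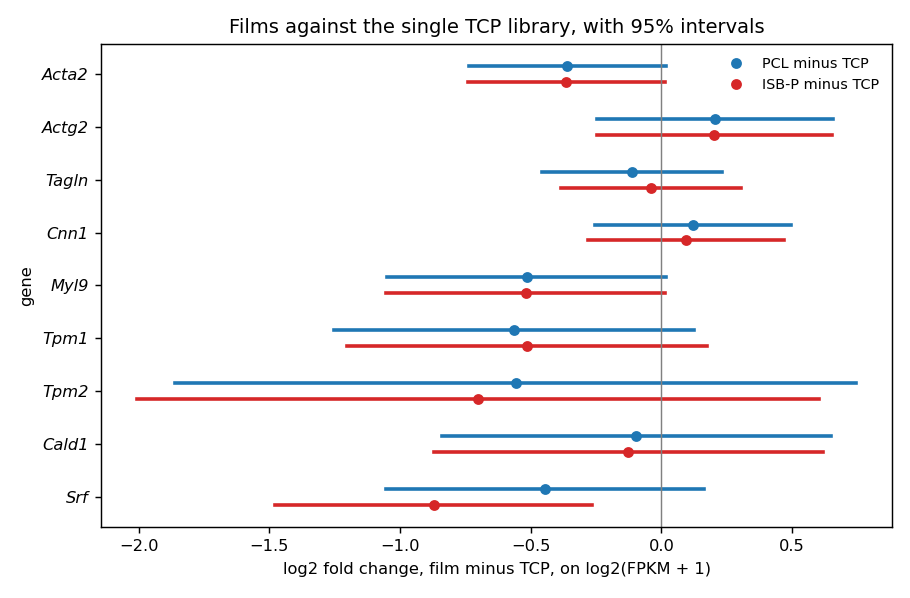
Log2 fold change of each film minus the single TCP library on log2(FPKM + 1), with 95% intervals from the 7-library limma fit, for the 9 measured genes. The intervals of PCL include 0 for every gene shown, and on ISB-P that of Srf, from -1.48 to -0.26, does not.

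The genes most like Acta2 and Srf over the 7 libraries were taken from the 4803 genes whose mean level reached 16 FPKM, by Pearson correlation on log2(FPKM + 1). For Acta2 they were Tex264 (r = 0.990), Pltp (r = 0.987) and Crip1 (r = 0.987). For Srf they were Galnt2 (r = 0.998), Cbx6 (r = 0.996) and Smarcd2 (r = 0.996). Cbx6, for instance, measured 33.2 FPKM on TCP, 18.8 to 25.1 FPKM on PCL and 11.8 to 19.8 FPKM on ISB-P. These correlations are descriptions over libraries that share 1 TCP sample and the same replicate numbers.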

How the data were processed

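RNA of rMSCs at 4 h after seeding was measured in 7 libraries (TCP 1, PCL 3, ISB-P 3), prepared as stranded TruSeq mRNA libraries and sequenced as paired ends. The authors deposited 1 value per gene and library, read as FPKM because the values are not whole numbers and the processing notes name Cuffdiff 2.2.1. Those notes also name TopHat2 2.0.13, cutadapt 1.18, bcl2fastq 2.20.0.422 and build rn5, with no role or order. The number of reads is unknown, no interval or floor from counts is given, and precision rests on 3 libraries per film. FPKM depends on how reads shared by related genes were split.

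A gene entered the tests if 3 or more film libraries reached 1 FPKM, which left 9467, analysed with limma 3.58.1 in R 4.3.3 on log2(FPKM + 1), with a mean-variance trend, two-sided, with Benjamini-Hochberg adjustment and a threshold of 0.05. Fold changes on this scale understate changes of low genes. ISB-P against PCL used the 6 film libraries, and comparisons with TCP all 7. Single genes also had an exact permutation test (scipy 1.17.1). Film libraries of the same number deviated together from their film means over genes (r = 0.887, 0.431 and 0.867), so the numbers of the labels were taken to pair the libraries and the fit with the replicate number as a block is printed where it changed a call.

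All genes chosen for study are named with their values, and of the pathway lists up to 5 genes per list with the largest difference among those called without or with the block. Des was named after its values were seen. The genes were taken by name and role, not by a cutoff on measured values, but they and the lists were chosen with earlier results of these data known. Alternatives were the replicate block, common total, quantile and upper quartile scaling, a pseudocount of 0.1, a minimum of 5 FPKM, no filter, TCP in the fit and leaving out each library. Promoters came from RefSeq, build GRCr8. Genes of 1 further signalling list are not reported here.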

Additional observations from a re-analysis of the deposited data

How the results depend on the processing

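Without the replicate block, 0 of the 9 genes were called lower on ISB-P than on PCL under every scaling, filter, pseudocount and left-out library. The replicate block gave 1 (Srf). So did its 7 combinations chosen after seeing the data: with common total, quantile or upper quartile scaling, with a pseudocount of 0.1, and without replicate 1, 2 or 3, each 1. The limma adjusted p of Srf ran from 0.00401 to 0.00852 in the blocked fits of all film libraries, and from 0.227 to 0.848 without the block. Blocked fits without replicate 1, 2 or 3 gave 1.71e-04 to 0.00618. With so few libraries those fits rest largely on the spread of other genes, so their smaller values are no added evidence. Against TCP, leaving out single libraries gave 0 to 1 genes called lower on ISB-P, the 1 being Srf without ISB-P replicate 1, and no call on PCL. The pairing changed no other call among the 9 genes. Common total scaling moved the median log2 difference of all genes between the films from 0.016 to -0.089, beside which Srf stood at -0.53 with the block.

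Over all genes, 163 were called between the films (104 higher, 59 lower), 140 with a common total (70 and 70), 108 with upper quartile scaling, 85 at a minimum of 5 FPKM, and 20 (without PCL replicate 2) to 113 (without ISB-P replicate 3) with 1 library left out. The block gave 2307 (1228 and 1079), or 2827 with a common total (714 and 2113), 2380 with upper quartile scaling (822 and 1558) and 2292 with quantile scaling (1083 and 1209). Against TCP, 1181 were called on ISB-P (603 higher, 578 lower), 1296 with a common total (512 and 784), 1219 with upper quartile scaling (509 and 710), 744 at a minimum of 5 FPKM and 471 to 1413 with 1 library left out. On PCL the counts were 737, 471 at that minimum, 1116 with no filter and 278 to 1001 with 1 library left out. Depth is unknown, so precision rests on 3 libraries per film.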
